A study of Mus musculus with 9 samples.

Results

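The dual-specificity MAP kinase phosphatases were followed through 9 genes, Dusp1, Dusp4, Dusp5, Dusp6, Dusp7, Dusp8, Dusp10, Dusp14 and Dusp16, chosen by gene symbol from the 16509 genes of the expression table. All 9 were among the 11949 genes that had enough counts to be tested. The libraries came from MC38, a mouse colorectal cancer cell line, and fell into 3 groups of 3. Ctrl cells were given DMSO according to the sample labels, whereas the methods name PBS for the untreated group. Cu-Cys cells were given a copper and cystine coordination polymer. Cadict cells were given a nanodrug that joins copper, cystine, the glucose-consuming enzyme glucose oxidase and GE11, a peptide that binds the EGF receptor. Dose and exposure time of the sequenced cells are not given in the sources used here, and the agents differ in several components at once, so an effect of one component of Cadict cannot be told apart from that of another. The labels number the replicates without saying whether they were separate cultures, while the paper speaks of independent repeats and biological replicates for its cell experiments in general. If they were not separate cultures, the p-values measure only the spread between these samples, which may be technical.

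Each library held between 17905771 and 18293056 expected counts, and the 9 genes had between 77 (Dusp7 with Cadict) and 4789 (Dusp4 with Cu-Cys) counts in a library. The TMM scaling factors (edgeR's correction for libraries dominated by few genes) were 1.26 to 1.27 for Ctrl, 1.21 for Cu-Cys and 0.640 to 0.665 for Cadict. The scaling therefore touches every value for Cadict: with counts divided by library totals alone, the median log2 fold change of all genes shifted by -0.95 for Cadict against Ctrl, by -0.88 for Cadict against Cu-Cys and by -0.07 for Cu-Cys against Ctrl. Of the epithelial markers, Epcam had 0 counts throughout Ctrl and Cu-Cys and 0 to 4 with Cadict, and 6 of 7 listed genes in the table summed to 4.22 to 6.24 TPM (a share of all transcripts, corrected for length) in Ctrl, 3.50 to 3.95 with Cu-Cys and 11.5 to 13.2 with Cadict. The 5 fibroblast and endothelial markers summed to 51.7 to 58.1, 32.1 to 33.4 and 9.24 to 11.3 TPM in the same order, and the 3 of 5 leukocyte markers in the table to at most 0.08 TPM. The labelled carcinoma line thus had no Epcam counts in Ctrl libraries, and 1 to 4 counts of Krt8, 0 to 1 of Krt18 and 0 to 1 of Vil1. Cdh1 had 99 to 120 counts there and Krt19 had 19 to 33. Pdgfra, Pdgfrb and Col1a1 made up most of the fibroblast and endothelial sum there. Pecam1 had 0.43 to 0.96 TPM and Cdh5 0.15 to 0.23 TPM in Ctrl. The part of these marker shifts in the results was not tested, and fewer expressing cells cannot be told apart from less RNA per cell.

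MAP kinases (ERK, JNK and p38) are switched on when a kinase adds phosphate to a threonine and a tyrosine of the activation loop. Dual-specificity MAP kinase phosphatases remove both phosphates and switch the kinase off again, and many of their genes are themselves induced by MAP kinase signalling, which makes them feedback inhibitors. Nuclear members such as Dusp1, Dusp4 and Dusp5 are encoded by inducible genes. Dusp6 and Dusp7 act in the cytoplasm and prefer ERK. Dusp8, Dusp10 and Dusp16 prefer JNK and p38. Dusp14 is a small atypical member without the N-terminal MAP kinase-binding domain of the others.

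The promoters bear on the members that rose or fell furthest or carried a motif. RefSeq promoters on GRCm38.p6, from 250 bases before to 50 bases after the transcription start, were matched for 8 of the 9 genes, all but Dusp4, and compared with all 32851 promoters of the same length. The CRE letters TGACGTCA stood once before Dusp1, at -143 to -136 from the start, and at 2 places before Dusp8, at -107 to -100 and -63 to -56, whereas 1.79% of all promoters held them. Dusp5 carried 2 adjoining CArG boxes, the element of serum response factor, at -82 to -73 and -72 to -63, and 1.63% of all promoters held one. The letters TGANTCA (AP-1), TGATGNAA (the composite ATF and C/EBP element) and TATAAA, read on both strands, were in 0 of the 8 promoters and in 7.81%, 3.97% and 13.6% of all promoters. A match is a description of letters, not of binding. The sequences of Dusp1, Dusp5 and Dusp8 are printed for their motifs, in capitals, and that of Dusp7, the member with the largest fall, for its base composition, each 5′ to 3′ on the strand of its gene.
Dusp1 (chr17:26508423-26508722, minus strand): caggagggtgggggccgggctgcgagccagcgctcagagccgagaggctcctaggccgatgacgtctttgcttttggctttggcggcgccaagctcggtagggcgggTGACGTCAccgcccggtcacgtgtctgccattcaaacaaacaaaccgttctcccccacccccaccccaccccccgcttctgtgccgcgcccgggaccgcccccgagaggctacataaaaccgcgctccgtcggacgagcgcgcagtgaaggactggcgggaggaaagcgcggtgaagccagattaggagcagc
Dusp5 (chr19:53528895-53529194, plus strand): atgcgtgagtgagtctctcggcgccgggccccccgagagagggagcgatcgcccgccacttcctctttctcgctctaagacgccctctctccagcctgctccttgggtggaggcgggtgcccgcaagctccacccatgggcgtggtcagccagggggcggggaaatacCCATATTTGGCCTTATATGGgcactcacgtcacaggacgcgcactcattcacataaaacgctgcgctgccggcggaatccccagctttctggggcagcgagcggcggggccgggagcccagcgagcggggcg
Dusp7 (chr9:106368382-106368681, plus strand): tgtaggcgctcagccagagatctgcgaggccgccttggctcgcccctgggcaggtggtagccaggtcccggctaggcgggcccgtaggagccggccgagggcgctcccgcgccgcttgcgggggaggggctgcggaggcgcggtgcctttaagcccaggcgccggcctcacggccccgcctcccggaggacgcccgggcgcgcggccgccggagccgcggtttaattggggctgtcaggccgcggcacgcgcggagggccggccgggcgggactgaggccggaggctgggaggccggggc
Dusp8 (chr7:142095235-142095534, minus strand): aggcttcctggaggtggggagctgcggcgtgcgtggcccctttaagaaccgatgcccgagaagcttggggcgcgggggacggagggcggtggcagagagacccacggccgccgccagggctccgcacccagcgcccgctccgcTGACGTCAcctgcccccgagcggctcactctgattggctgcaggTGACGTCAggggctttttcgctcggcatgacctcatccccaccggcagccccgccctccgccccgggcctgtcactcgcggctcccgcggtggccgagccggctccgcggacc

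The Dusp7 promoter held 78.7% G and C, at least as much as 98.6% of promoters, against a median of 52.7% over all promoters. The other 7 ranged from 57.3% in Dusp6 to 73.3% in Dusp8. The start used for Dusp8 lay 623 bases inside the annotated end of the gene, that of Dusp7 72, that of Dusp14 899 and that of Dusp16 14435 bases inside, so other starts of these 4 genes were not searched.

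In Ctrl cells the 9 genes covered a wide range of levels per transcript length. Dusp4 was the most abundant with 157 TPM ± 1.94 (SD, n = 3), followed by Dusp1 with 75.1 ± 4.29. The cytoplasmic pair came next, with Dusp6 at 45.9 ± 2.28 TPM and Dusp7 at 40.4 ± 1.99. Dusp10 and Dusp14 had 33.4 ± 1.11 and 22.3 ± 1.40 TPM. The lowest levels were 12.9 ± 0.44 TPM for Dusp16, 9.69 ± 0.74 for Dusp8 and 7.44 ± 0.57 for Dusp5. No neighbours in this order overlapped in their 3 Ctrl libraries. With 3 libraries against 3, an exact two-sided permutation test cannot give a p below 0.1, so the order is given as a description.

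The first comparison asked how the phosphatase genes stood in cells given Cadict relative to Ctrl. Dusp5, Dusp14, Dusp1 and Dusp6 rose and Dusp7 fell past the limits the study set, a fold change of 2 or more together with an adjusted p no higher than 0.001 (edgeR quasi-likelihood test, Benjamini-Hochberg over 11949 genes). That is 4 of 9 members higher, where 20.7% of all tested genes were called higher, and 1 of 9 lower, where 27.1% of all were called lower. Without the fold limit, with an adjusted p up to 0.05, 6 members were higher and 3 lower, against 40.6% and 47.1% of all genes. The members' median log2 fold change was 0.99 beside -0.13 over all genes tested. All 9 members had Cadict and Ctrl libraries that did not overlap, as did 87.5% of all genes, so separation of the groups was no particular feature of them. On library totals 1 member was called higher and 3 lower. The members' median was 0.04 there, beside -1.08 over all genes. The direction of the middle members thus depends on the scaling, while their median stayed above that of all genes. The order of the members by fold change was the same on library totals, since a common factor moves every gene alike.

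**Figure D1:**
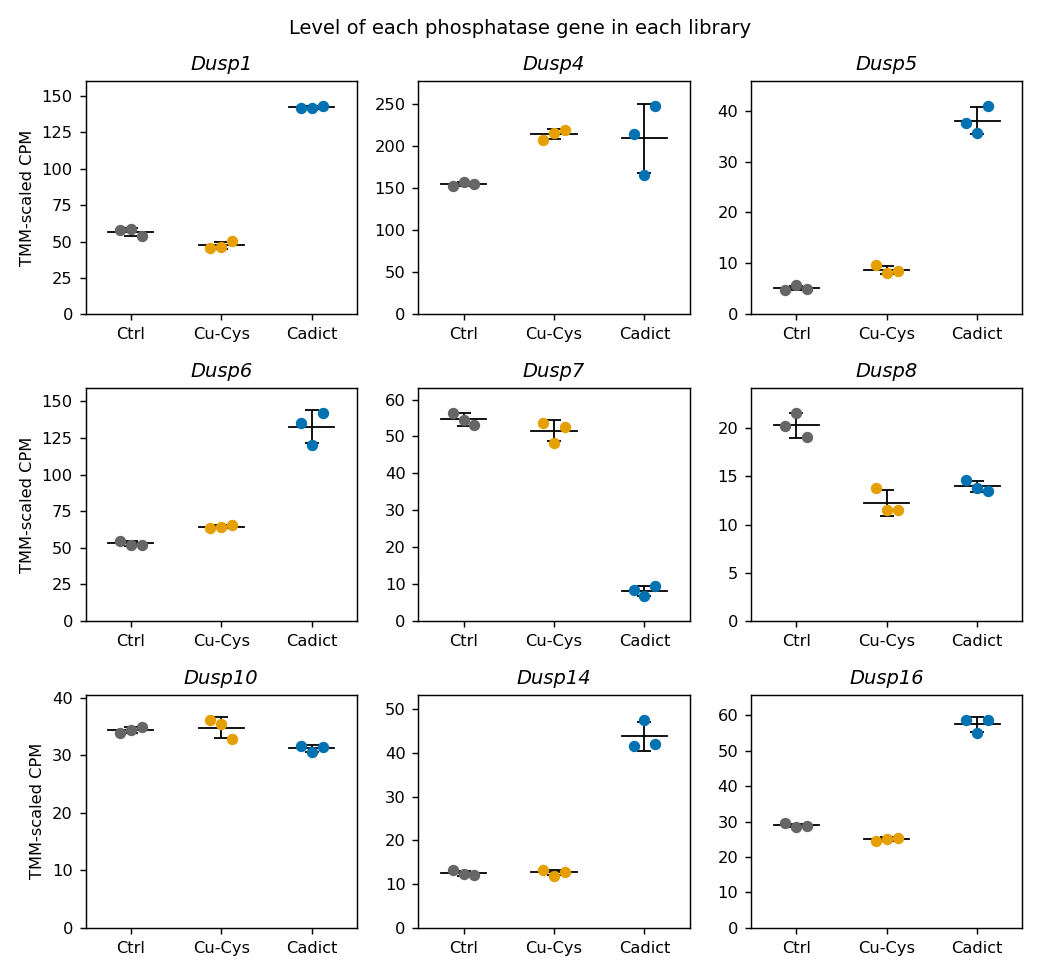
TMM-scaled CPM (counts relative to the library size, linear axes starting at 0) of each of the 9 genes in the 3 Ctrl, 3 Cu-Cys and 3 Cadict libraries. Points are libraries, the long bar is the group mean and the whiskers are 1 SD. Dusp7 sits at 6.71 to 9.40 in Cadict against 53.0 to 56.4 in Ctrl libraries, while Dusp5 sits at 35.6 to 40.9 against 4.84 to 5.67.

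Among the nuclear inducible members, Dusp5 changed most. Dusp5 (gene ID 240672, chromosome 19, 53529145 to 53541809, plus strand, GRCm38, 4 exons) encodes a phosphatase that inactivates and retains ERK in the nucleus. Its TMM-scaled CPM (counts relative to the scaled library size) was 4.84, 5.67 and 5.01 in Ctrl, 9.60, 8.05 and 8.44 in Cu-Cys and 37.6, 35.6 and 40.9 in Cadict libraries. The 3 groups formed separate steps, Ctrl lowest and Cadict highest. Against Ctrl the gene was 7.34-fold higher with Cadict (log2 fold change 2.88, SE 0.095, adjusted p = 1.75e-13, edgeR), which placed it above 97.3% of all genes. The rise held on every scaling tried, with log2 fold changes of 3.00 with DESeq2 size factors, 1.92 on library totals and 1.45 with limma on log2(TPM + 1). An antisense gene, AC137853.2, overlaps Dusp5 on the opposite strand and shares 20.5% of its 50-base windows. The counting is not stated to use strand, so reads of the antisense gene cannot be told apart there.

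Dusp1 (gene ID 19252, chromosome 17, 26505591 to 26508472, minus strand, 4 exons) is the founding MAP kinase phosphatase, an immediate early gene whose product acts on p38, JNK and ERK. It had 57.7, 58.8 and 53.7 CPM in Ctrl, 45.5, 46.4 and 50.3 in Cu-Cys and 142, 142 and 143 in Cadict libraries. Cadict libraries were high and close together, and Cu-Cys libraries were all below Ctrl. The fold change against Ctrl was 2.51 with Cadict (log2 1.32, SE 0.056, adjusted p = 2.84e-12, edgeR). The size of this change followed the scaling, since the log2 fold change was 1.44 with DESeq2 size factors, 0.37 on library totals and 0.02 on log2(TPM + 1), the last with an adjusted p of 0.857 in limma. In TPM, as a share of all transcripts, Dusp1 thus stood at 75.1 ± 4.29 in Ctrl and 76.1 ± 7.55 in Cadict. Ergic1, a coding gene, and Gm8225, a processed pseudogene, overlap Dusp1 on the opposite strand. On the same strand AC122252.1, a sense intronic gene, and AC122252.4, a processed pseudogene, overlap it. Of the 50-base windows of Dusp1, 0% occurred in transcripts of other genes. Genes on the opposite strand also overlap Dusp8 (Gm32786), Dusp10 (1700056E22Rik, a coding gene) and Dusp16 (Gm36328). The limit on strand given for Dusp5 applies to these members as well.

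Dusp4 (gene ID 319520, chromosome 8, 34807610 to 34819894, plus strand, 4 exons), a nuclear phosphatase of ERK and JNK that is itself an ERK target, was the most variable member. Its CPM was 152, 157 and 155 in Ctrl, 207, 215 and 218 in Cu-Cys and 214, 165 and 247 in Cadict libraries. Cadict replicate 2 stood well below the other two, although still above every Ctrl library. The log2 fold change with Cadict was 0.43 (SE 0.098, adjusted p = 6.70e-04, edgeR), and it reversed to -0.52 on library totals and to -0.89 on log2(TPM + 1). Leaving out Cadict replicate 2 gave 0.58 and leaving out replicate 3 gave 0.29. The SD of the 3 Cadict libraries was 41.3 CPM, against 2.73 in Ctrl and 5.72 in Cu-Cys.

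The cytoplasmic ERK phosphatases moved in opposite directions. Dusp6 (gene ID 67603, chromosome 10, 99263231 to 99267489, plus strand, 3 exons), an ERK-selective phosphatase and a widely used readout of ERK activity, had 54.9, 52.0 and 52.0 CPM in Ctrl, 63.5, 64.2 and 65.5 in Cu-Cys and 135, 120 and 142 in Cadict libraries. The groups did not overlap. Its fold change with Cadict was 2.50 (log2 1.32, SE 0.062, adjusted p = 1.04e-11, edgeR), nearly that of Dusp1. The log2 fold change was 0.37 on library totals and 0.01 on log2(TPM + 1), where it did not pass (adjusted p = 0.904, limma).

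Dusp7 (gene ID 235584, chromosome 9, 106368560 to 106375724, plus strand, 3 exons) is the closest relative of Dusp6 among the 9 and also prefers ERK. It had 56.4, 54.4 and 53.0 CPM in Ctrl, 53.8, 48.3 and 52.4 in Cu-Cys and 8.33, 6.71 and 9.40 in Cadict libraries. Ctrl and Cu-Cys overlapped and every Cadict library was far below both. Dusp7 was 6.69-fold lower with Cadict (log2 fold change -2.74, SE 0.093, adjusted p = 2.54e-13, edgeR), and only 5.26% of genes had a log2 fold change as low or lower. The fall held on every scaling tried, from -2.62 with DESeq2 size factors to -3.69 on library totals. In TPM the ratio of Dusp6 to Dusp7 within a library, which no scaling of the library can alter, was 1.13 ± 0.015 in Ctrl, 1.46 ± 0.085 in Cu-Cys and 19.2 ± 1.63 in Cadict libraries (SD, n = 3).

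Of the JNK and p38 phosphatases, 1 rose and the other 2 were lower with Cadict. Dusp16 (gene ID 70686, chromosome 6, 134715468 to 134807063, minus strand, 7 exons) had 29.5, 28.5 and 28.7 CPM in Ctrl, 24.5, 25.1 and 25.5 in Cu-Cys and 58.5, 55.1 and 58.8 in Cadict libraries. Cadict was separate and high, and Cu-Cys lay below Ctrl. The fold change with Cadict of 1.99 (log2 0.99, SE 0.056, adjusted p = 1.13e-10, edgeR) fell just under the threshold of 2, and passed it with DESeq2 size factors at a log2 fold change of 1.11. On library totals it was 0.04 and on log2(TPM + 1) it reversed to -0.19, neither past an adjusted p of 0.05.

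Dusp8 (gene ID 18218, chromosome 7, 142079487 to 142095907, minus strand, 7 exons) had 20.2, 21.6 and 19.1 CPM in Ctrl, 13.8, 11.5 and 11.5 in Cu-Cys and 14.6, 13.8 and 13.5 in Cadict libraries. Both treated groups lay below Ctrl. The fall with Cadict was -0.54 on the log2 scale (SE 0.092, adjusted p = 4.90e-05, edgeR) and grew to -1.49 on library totals and -1.53 on log2(TPM + 1).

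Dusp10 (gene ID 63953, chromosome 1, 184034381 to 184075636, plus strand, 4 exons) had 33.8, 34.4 and 35.0 CPM in Ctrl, 36.2, 35.4 and 32.8 in Cu-Cys and 31.7, 30.6 and 31.4 in Cadict libraries. It was the steadiest member by TMM-scaled CPM. The difference of -0.14 with Cadict (SE 0.062, adjusted p = 0.0457, edgeR) lost its call with DESeq2 size factors (-0.02, adjusted p = 0.764) and without any one Ctrl or Cadict library, with adjusted p-values of 0.0568 to 0.0983. On library totals it was -1.09.

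The atypical Dusp14 (gene ID 56405, chromosome 11, 84048033 to 84069256, minus strand, 4 exons), a small phosphatase known as a negative regulator of T cell receptor signalling, had 13.1, 12.3 and 12.1 CPM in Ctrl, 13.2, 11.9 and 12.9 in Cu-Cys and 41.6, 47.6 and 42.1 in Cadict libraries. Ctrl and Cu-Cys overlapped, and Cadict was separate. The gene rose 3.50-fold with Cadict (log2 1.81, SE 0.077, adjusted p = 3.18e-12, edgeR). Its log2 fold change was 1.93 with DESeq2 size factors, 0.85 on library totals and 0.38 on log2(TPM + 1), positive in each.

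**Figure D2:**
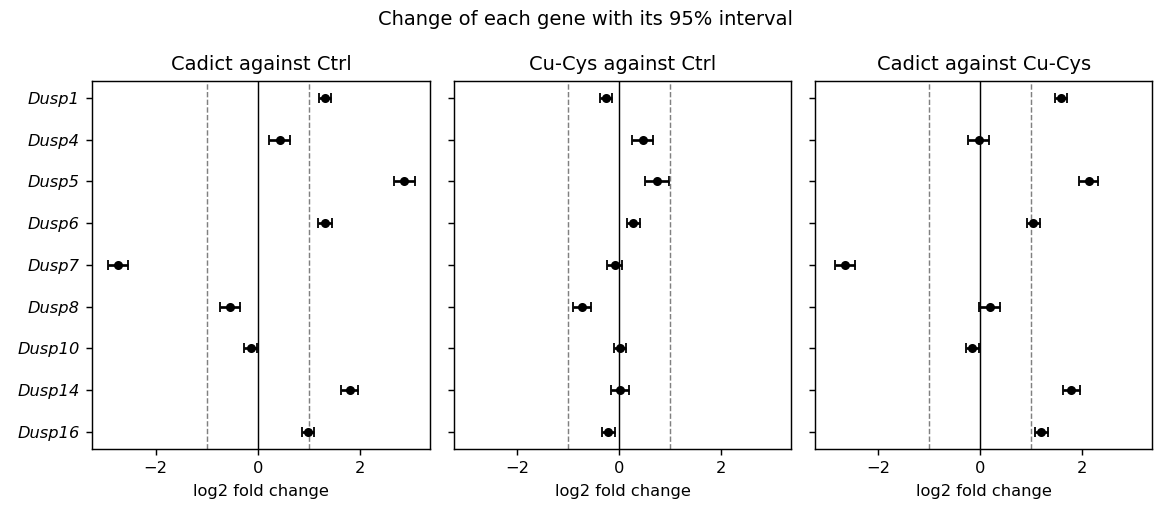
Log2 fold change of each gene (horizontal axis) in the 3 comparisons, with points for the edgeR estimate and whiskers for its 95% interval. Dashed lines mark a fold change of 2 in either direction. Dusp5 at 2.88 and Dusp7 at -2.74 lie at the ends in Cadict against Ctrl, and all 9 points lie inside the dashed lines in Cu-Cys against Ctrl.

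**Figure D3:**
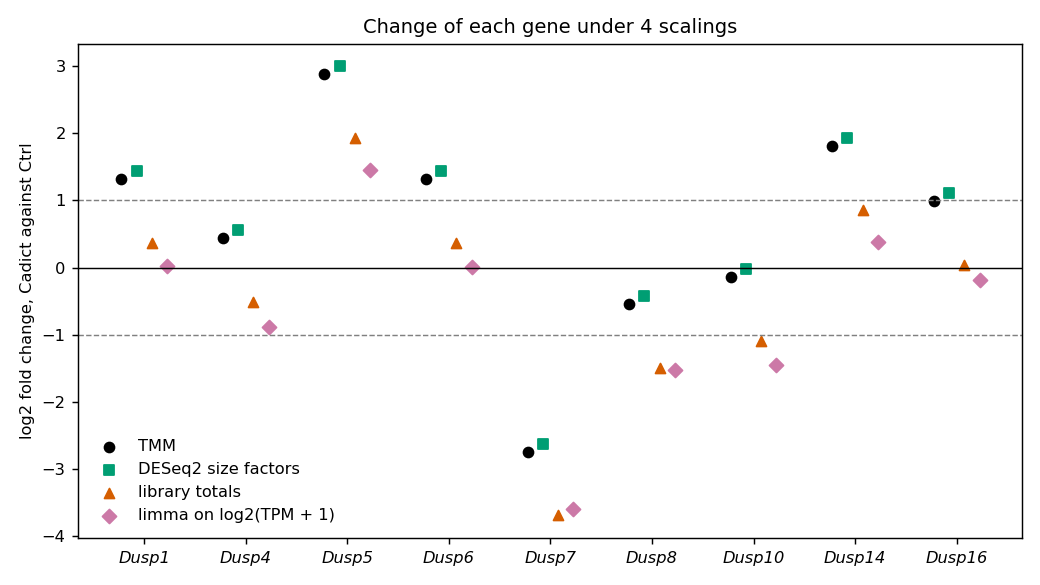
Log2 fold change in Cadict against Ctrl (vertical axis) of the 9 genes under TMM scaling, DESeq2 size factors, library totals and limma on log2(TPM + 1). Dashed lines mark a fold change of 2. Dusp5 and Dusp14 lie above 0 and Dusp7, Dusp8 and Dusp10 below 0 under all 4, whereas Dusp4 and Dusp16 change sign.

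The second comparison set cells given Cu-Cys, without glucose oxidase or GE11, against Ctrl. The changes were small and split between directions, and 0 of 9 members passed the fold threshold in either direction, where 0.167% of all genes were called higher and 1.47% lower by edgeR. DESeq2 also called 0 of the 9, and 6 had an unadjusted p under 0.05 in edgeR. With an adjusted p up to 0.05, 3 members were higher and 3 lower, against 22.6% and 22.4% of all genes, and 6 members had groups that did not overlap, against 61.2% of all genes. The median log2 fold change was 0.02, beside 0.0067 over all genes.

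Of the higher members, Dusp5 rose by 0.75 (log2 fold change, SE 0.11, adjusted p = 6.85e-05, edgeR), above 98.4% of all genes. Dusp4 rose by 0.47 (SE 0.096, adjusted p = 0.00123, edgeR) and Dusp6 by 0.28 (SE 0.062, adjusted p = 0.00199, edgeR), although with limma on log2(TPM + 1) neither passed (adjusted p = 0.113 and 0.344). All 3 stayed positive on library totals.

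Of the lower members, Dusp8 fell by 0.73 on the log2 scale (SE 0.084, adjusted p = 9.64e-06, edgeR), and only 5.54% of genes fell as far or further. Dusp1 fell by 0.26 (SE 0.057, adjusted p = 0.00187, edgeR) and Dusp16 fell by 0.21 (SE 0.057, adjusted p = 0.00868, edgeR). All 3 stayed negative under each scaling.

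Dusp7, Dusp10 and Dusp14 did not pass the test in Cu-Cys against Ctrl. Their log2 fold changes were -0.08 (95% interval -0.23 to 0.06), 0.02 (-0.11 to 0.14) and 0.02 (-0.16 to 0.20), and those of Dusp10 and Dusp14 changed sign on library totals (-0.052 and -0.049). The intervals leave out a fold change of 2 in either direction.

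The third comparison, Cadict against Cu-Cys, shares its Cadict libraries with the first and its Cu-Cys libraries with the second. Dusp5, Dusp14, Dusp1, Dusp16 and Dusp6 were called higher and Dusp7 lower, which is 5 and 1 of 9 where 18.6% and 23.6% of all genes were called. With an adjusted p up to 0.05, 5 were higher and 2 lower, against 40.3% and 45.6% of all genes, and 7 members had groups that did not overlap, against 85% of all genes. The median log2 fold change of the members was 1.04, beside -0.10 over all genes. On library totals 1 member was called higher and 2 lower, and the members' median was 0.16 beside -0.98 over all genes.

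Dusp5 was 4.37-fold higher (log2 2.13, SE 0.089, adjusted p = 3.35e-12, edgeR) and Dusp14 3.45-fold (log2 1.79, SE 0.077, adjusted p = 4.98e-12). Dusp1 was 3.00-fold higher (log2 1.58, SE 0.057, adjusted p = 5.77e-13, edgeR). Dusp16 was 2.30-fold (log2 1.20, SE 0.058, adjusted p = 1.78e-11, edgeR) and Dusp6 2.06-fold higher (log2 1.04, SE 0.061, adjusted p = 2.05e-10). Dusp5, Dusp14 and Dusp1 stayed positive on library totals and in TPM, whereas Dusp6 turned to -0.12 on log2(TPM + 1). Dusp7 was 6.31-fold lower (log2 -2.66, SE 0.094, adjusted p = 5.24e-13, edgeR).

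Dusp10 was lower by -0.16 on the log2 scale (SE 0.062, adjusted p = 0.0287, edgeR), a call lost with DESeq2 size factors (adjusted p = 0.349) and without Cu-Cys replicate 1 (0.103), Cu-Cys replicate 2 (0.0580) or Cadict replicate 2 (0.0568). Its fall was far larger on library totals, at -1.04 (adjusted p = 1.57e-10), and with limma on log2(TPM + 1), at -1.30 (adjusted p = 1.90e-08). Dusp4 and Dusp8 did not pass. Dusp4 differed by -0.03 (95% interval -0.24 to 0.17), with 0.11 without Cadict replicate 2 (adjusted p = 0.0459) and -0.18 without Cadict replicate 3 (adjusted p = 0.0481), so single Cadict libraries turned its sign. The scaling moved it further, to -0.91 on library totals (adjusted p = 4.64e-07) and -1.21 with limma on log2(TPM + 1) (adjusted p = 4.02e-06), both past the test, and to 0.060 with DESeq2 size factors. Dusp8 differed by 0.19 (95% interval -0.02 to 0.40, adjusted p = 0.0865, edgeR), passed without Cu-Cys replicate 1 at 0.28 (adjusted p = 0.0154), and turned to -0.70 on library totals.

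The make-up of the phosphatase transcripts, as each gene's share of the summed TPM of the 9 genes within a library, does not depend on how libraries are scaled against each other. The sum itself was 405 ± 12.2 TPM in Ctrl, 416 ± 11.9 in Cu-Cys and 290 ± 48.9 in Cadict libraries, whereas the summed TMM-scaled CPM was 420 ± 6.28, 470 ± 6.42 and 676 ± 56.4, so the direction of the total turned with the scale. Dusp4 held the largest mean share in each group, with 38.9% ± 0.88 in Ctrl, 47.3% ± 0.99 in Cu-Cys and 29.7% ± 3.71 in Cadict. In Cadict replicate 2, however, Dusp1 held 28.6% and Dusp4 25.6%. Dusp1 went from 18.6% ± 0.56 in Ctrl to 13.6% ± 0.51 in Cu-Cys and 26.5% ± 1.95 in Cadict. The 3 groups of libraries did not overlap for either gene.

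The largest relative loss of share was that of Dusp7, from 9.98% ± 0.23 in Ctrl and 8.29% ± 0.42 in Cu-Cys to 0.844% ± 0.079 in Cadict. Dusp5 went the other way, from 1.84% ± 0.14 and 2.72% ± 0.27 to 7.67% ± 0.13. Dusp14 went from 5.51% ± 0.20 and 4.96% ± 0.33 to 10.3% ± 1.62, and Dusp6 from 11.3% ± 0.33 and 12.1% ± 0.090 to 16.1% ± 0.26. Among the JNK and p38 phosphatases, Dusp10 went from 8.26% ± 0.23 to 4.04% ± 0.064 and Dusp8 from 2.39% ± 0.14 to 0.944% ± 0.088 in Ctrl and Cadict, while Dusp16 went from 3.20% ± 0.082 to 3.91% ± 0.20.

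**Figure D4:**
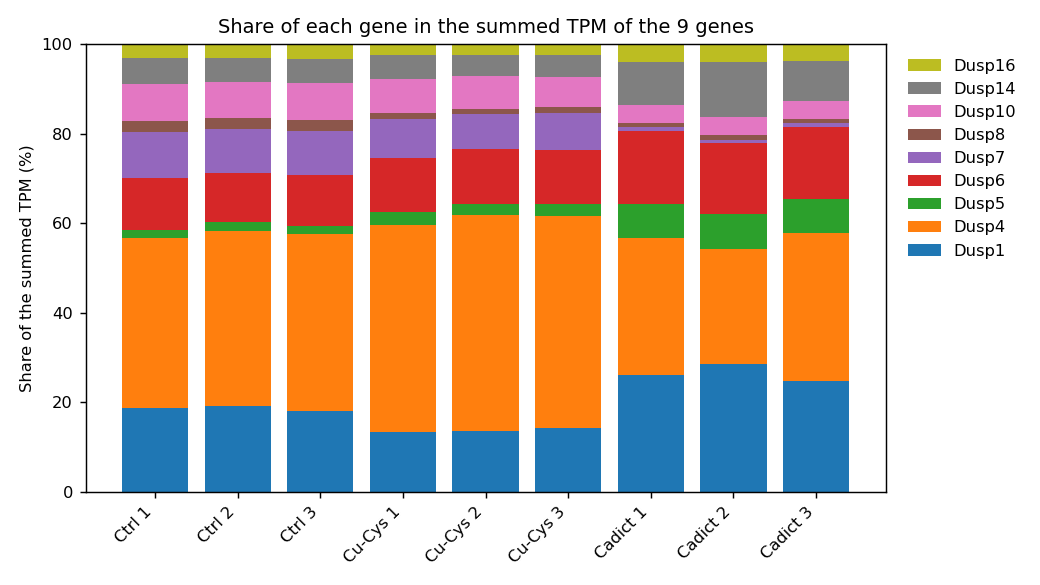
Share of each of the 9 genes in their summed TPM (percent, stacked to 100) in each of the 9 libraries. The Dusp7 band thins from 9.98% on average in Ctrl to 0.844% in Cadict libraries, and the bands of Dusp1, Dusp5, Dusp6 and Dusp14 widen.

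Ratios between pairs of members, taken within each library, were also compared between the groups. Dusp5 to Dusp4 was 0.0472 ± 0.0032 in Ctrl, 0.0576 ± 0.0069 in Cu-Cys and 0.261 ± 0.038 in Cadict. Dusp14 to Dusp10 was 0.667 ± 0.025, 0.687 ± 0.052 and 2.54 ± 0.36, and its Ctrl (0.639 to 0.688) and Cu-Cys (0.629 to 0.728) libraries overlapped. Dusp16 to Dusp8, both directed at JNK and p38, was 1.34 ± 0.11, 1.93 ± 0.18 and 4.15 ± 0.21. Cadict libraries lay above all Ctrl and Cu-Cys libraries in each of these ratios.

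The order of levels in TPM changed with treatment. In Cu-Cys cells Dusp5 (11.3 ± 1.06) moved above Dusp16 (10.3 ± 0.24). Their ranges overlapped, although Dusp5 was the higher within each Cu-Cys library, and the other neighbours did not overlap. In Cadict cells Dusp4 (87.2 ± 24.8), Dusp1 (76.1 ± 7.55) and Dusp6 (46.8 ± 8.29) kept the top places. Dusp14 (29.3 ± 0.95) and Dusp5 (22.2 ± 3.57) came next, above Dusp10 (11.7 ± 1.80) and Dusp16 (11.3 ± 1.37). Dusp8 (2.71 ± 0.28) and Dusp7 (2.47 ± 0.63) were lowest. The ranges of Dusp4 and Dusp1, of Dusp10 and Dusp16, and of Dusp8 and Dusp7 overlapped. Within each Cadict library Dusp10 stood above Dusp16 (11.99 and 11.68, 9.77 and 9.73, 13.33 and 12.37 TPM). The order of Dusp4 and Dusp1 and that of Dusp8 and Dusp7 changed between libraries. These differences between genes were not tested.

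Effective length, the length that turns an expected count into an FPKM, was computed back from the deposited values and shows where the estimated mix of transcripts of a gene shifted. With Cadict it was 7.87% longer for Dusp14 (1195 ± 9.54 to 1289 ± 10.6 bases) and fell by 6.84% for Dusp16 (4768 ± 36.4 to 4442 ± 40.4 bases), without overlap between the groups. For Dusp10 it was 6.18% longer, with overlapping libraries (2195 ± 62.2 and 2331 ± 108 bases). The other 6 genes changed by 0.143% to 0.833%, where the median over 8855 genes was 0.452%. Changes as large as that of Dusp14 were seen in 6.35% of genes, of Dusp16 in 6.89% and of Dusp10 in 8.64%. The TPM of these 3 genes, but not their counts, carries this shift.

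In their 3′ UTRs (GENCODE M21), 7 of the 9 genes held the AU-rich pentamer ATTTA, as did 69.5% of 14665 genes. The 690-base 3′ UTR of Dusp1 held 4 and that of Dusp8 held 5, while Dusp7 and Dusp14, which moved in opposite directions with Cadict, held 0. The members' median was 2, beside 1 over all genes, and 1.24 per kilobase, beside 1.30. A share of 1.32% of the 50-base windows of Dusp14 also occurred in Gm18555.

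The rest of the MAP kinase pathway was counted from lists of related genes. The counts under TMM scaling stand beside 40.6% of all tested genes higher and 47.1% lower with Cadict at the same limit. The median log2 fold change over all genes was -0.13 under TMM scaling and -1.08 on library totals. Counts on library totals therefore carry that common shift towards lower values. No list was tested against other genes. Of 18 other dual-specificity phosphatase genes, 11 were tested, and with Cadict 4 were higher and 7 lower than in Ctrl (adjusted p up to 0.05, edgeR), with a median log2 fold change of -0.40. Dusp3, a small phosphatase of ERK and JNK, was higher by 1.48 on the log2 scale (SE 0.062, adjusted p = 3.06e-12, edgeR) and Dusp11, an RNA phosphatase, by 0.72 (SE 0.070, adjusted p = 7.72e-08), which turned to -0.23 on library totals. On library totals 1 was higher and 9 lower. Of 8 tested phosphatases of other families that act on MAP kinases or their stress pathways, 6 were higher and 1 lower, with a median of 0.57. In that list Ppp2cb, a catalytic subunit of PP2A, was higher by 1.64 (SE 0.058), and Ppm1d, a p53-induced phosphatase of p38, was 4.01-fold lower (SE 0.14 on the log2 scale). On library totals this list had 3 higher and 4 lower.

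Among the kinases, 4 of 10 tested MAP kinases were higher and 4 lower with Cadict, with a median log2 fold change of 0.03, and 1 and 9 on library totals. Mapk14, which encodes p38 alpha, stood at -1.60 (SE 0.062, adjusted p = 1.03e-12, edgeR) and Mapk7, which encodes ERK5, at -1.50 (SE 0.096, adjusted p = 4.63e-10). Of 7 MAP kinase kinases, 2 were higher and 5 lower, with a median of -0.23, and 1 and 6 on library totals. Map2k3, an activator of p38, was higher by 1.78 (SE 0.051) and Map2k1, an activator of ERK, by 0.75 (SE 0.075), which turned to -0.20 on library totals.

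Of 18 tested MAP kinase kinase kinases, 2 were higher and 14 lower, with a median of -0.63, and 0 and 17 on library totals. Map3k4, which acts towards p38 and JNK, stood at -2.51 (SE 0.077) and Map3k1, which acts towards JNK, at -1.61 (SE 0.11). Of 11 MAPK-activated kinases, 5 were higher and 5 lower with a median of 0.08, and 3 and 8 on library totals. Mapkapk3, a substrate of p38, stood at 1.81 (SE 0.071) and Rps6ka1, a kinase activated by ERK, at -2.59 (SE 0.10).

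Other ERK feedback and output genes were counted last. Of 6 tested Sprouty, Spred and Errfi1 genes, 5 were higher and 1 lower with Cadict, with a median of 0.63, but 1 higher and 3 lower on library totals. Spry4, an inhibitor of receptor tyrosine kinase signalling, was 4.01-fold higher (SE 0.11 on the log2 scale), and Errfi1, an EGF receptor inhibitor, was higher by 0.95 on the log2 scale (SE 0.055) and stood at -0.35 on log2(TPM + 1). Of 11 ERK output genes, 6 were higher and 4 lower, with a median of 1.46, and 6 and 5 on library totals. Phlda1 was higher by 4.16 (SE 0.065) and Egr1, an immediate early transcription factor, by 4.13 (SE 0.10). Other genes of this list fell, with Ccnd1 at a mean of 1057 CPM in Ctrl and 112 in Cadict libraries. Etv5 had a mean of 63.8 CPM in Ctrl and 28.6 in Cadict libraries. The 16 genes named by rule from the 8 lists were picked for their large changes in Cadict against Ctrl. Their adjusted p-values of 1.20e-07 or lower in edgeR reflect that choice and are no separate support. Of these 16, Dusp11, Map2k1 and Errfi1 were those that changed sign on log2(TPM + 1).

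With Cu-Cys, 0 of the 82 tested genes of the 8 lists passed the fold threshold by edgeR or DESeq2, and 45 had an unadjusted p under 0.05 in edgeR. With an adjusted p up to 0.05, where 22.6% of all genes were higher and 22.4% lower, the higher and lower counts were 3 and 1 for other dual-specificity phosphatases, 2 and 2 for MAP kinases, 4 and 1 for MAP kinase kinases, 0 and 6 for MAP kinase kinase kinases, 2 and 3 for MAPK-activated kinases, 2 and 2 for Sprouty, Spred and Errfi1 genes, 4 and 4 for ERK output genes and 1 and 1 for other MAPK phosphatases. Dusp3 (0.52), Map2k3 (0.52), Spry4 (0.50) and Map2k1 (0.43) were among the higher genes on the log2 scale, and all 4 stayed positive on library totals. Egr1 stood at -0.22 (adjusted p = 0.128, edgeR) and did not pass.

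**Figure D5:**
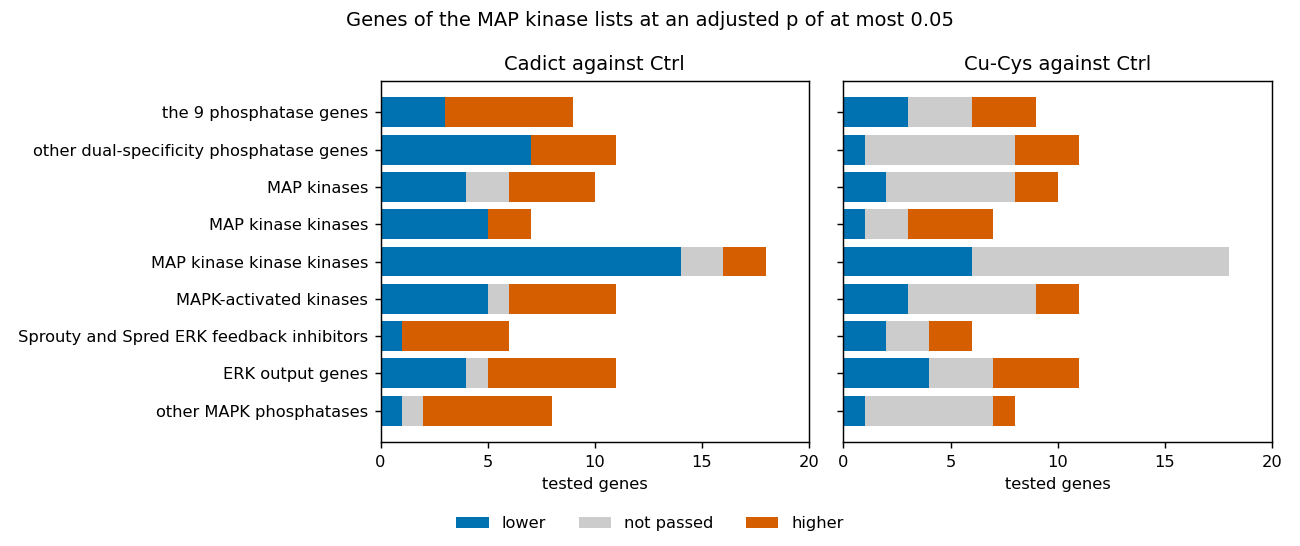
Number of tested genes (horizontal axis) that were lower, did not pass or were higher with an adjusted p up to 0.05 by edgeR, for the 9 phosphatase genes and 8 lists of related genes, in Cadict against Ctrl and in Cu-Cys against Ctrl. With Cadict, 14 of 18 MAP kinase kinase kinases were lower and 5 of 6 genes of the Sprouty and Spred list, which includes Errfi1, were higher.

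The genes most like each member were found by the root mean square distance of gene-centred log2 CPM over the 9 libraries, among 8542 other genes averaging at least 10 CPM. The nearest to Dusp6 were Sbno1 (0.034) and Dhx15 (0.039), and to Dusp10 Map2k4 (0.037), which encodes an activator of JNK, and Tubgcp4 (0.040). For Dusp16 they were Pacsin2 (0.051) and Fam171b (0.054), for Dusp14 Cdc42se1 (0.058) and Grn (0.063), and for Dusp1 H2-K1 (0.069). The nearest were Slc48a1 (0.090) and Plin2 (0.096) for Dusp5 and Tonsl (0.093) and Btbd3 (0.097) for Dusp7. Dusp4 lay nearest to Jade3 (0.090) and Frrs1 (0.091), and Dusp8 to Srr (0.107) and Neil3 (0.108). The distances describe 9 libraries of 3 groups and say nothing of shared function.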

How the data were processed

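The data are 9 RNA-seq libraries of MC38 cells, 3 each of Ctrl, Cu-Cys and Cadict. The authors deposited 1 table with an expected count per gene and library (not normalized), an FPKM and a TPM (both scaled for length and depth), and a normalized signal value (counts divided by a size factor per library). The submitters' processing notes list HISAT2 2.1.0, Bowtie2 2.3.4.3, RSEM 1.3.1 and the builds GRCh38.p13 and GRCm39 without saying which step used them. The methods name TRIzol and an Illumina instrument, the labels a column kit and DNA nanoballs. The column name CC was read as Cu-Cys from the initials, and CCGE as Cadict, inferred from the components of the nanodrug. The deposited group means and the signal values were not used in tests.

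After rounding, expected counts were tested with edgeR 4.0.16 under R 4.3.3 (filterByExpr, TMM, quasi-likelihood test, 1 model with 3 groups). The p-values were adjusted by Benjamini-Hochberg over 11949 genes. The SE is the log2 fold change divided by the square root of the F statistic. Alternatives were DESeq2 1.42.0 size factors and Wald test, library totals, other count filters, the replicate number as a block, the 6 libraries compared, limma 3.58.1 on log2(TPM + 1), log2(FPKM + 1) and log2(FPKM + 0.1), and each library left out. The scripts were tested on simulated data. Totals were 17905771 to 18293056 counts, so 3 counts correspond to 0.164 to 0.168 CPM before TMM scaling. Replicates correlated at 0.994 to 0.998 (log2 CPM). Promoters (GRCm38.p6) and gene positions came from RefSeq, and strands, exons, UTRs and overlapping genes from GENCODE M21 (GRCm38). Neither was mixed with coordinates of the files' build.

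All 9 members were named. From each other list the rule took the 2 genes with the largest change in Cadict against Ctrl at an average of at least 10 CPM, and any called in Cu-Cys against Ctrl. For each member it added the 2 genes nearest in pattern. Ccnd1 and Etv5 were named outside this rule. One gene that this rule selects is not reported here. The members and lists were chosen with earlier results of these data known.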

Additional observations from a re-analysis of the deposited data

How the results depend on the processing

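Scaling set most of the dependence. On library totals the median log2 fold change over all genes was -1.08 for Cadict against Ctrl and -0.98 for Cadict against Cu-Cys. Members called higher in Cadict against Ctrl numbered 4, and 1 on library totals, with limma on log2(TPM + 1) and on both FPKM scales (pseudocounts 1 and 0.1), where 3 rather than 1 were called lower. Dusp16 was also called higher with DESeq2 size factors (1.11), by DESeq2's Wald test (1.07) and on the 6 libraries compared (1.02), which made 5. In Cadict against Cu-Cys, 5 were called higher, but 1 on library totals and both FPKM scales and 0 on log2(TPM + 1), while 1 was called lower, but 2 and 3 under the same settings. Without filtering, 4 were called higher there. Leaving out 1 library gave 4 to 5 higher and 1 lower in both Cadict comparisons, and 0 in Cu-Cys against Ctrl.

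Of 513 alternative values of the 9 genes, 453 kept direction and side of an adjusted p of 0.05 (no fold limit, unlike the counts above), 27 lost that call, 7 gained it and 26 reversed. Dusp4 in Cadict against Ctrl was -0.52 (library totals), -0.89 (TPM), -0.54 and -0.55 (FPKM). In Cadict against Cu-Cys Dusp4 was 0.060 with DESeq2 size factors, 0.014 by DESeq2's Wald test and, with 1 library left out, between -0.18 (Cadict replicate 3) and 0.11 (Cadict replicate 2). The scaling moved it most, to -0.91 (library totals), -1.21 (TPM), -0.93 and -0.94 (FPKM), all past an adjusted p of 0.05. In the same comparison Dusp6 was -0.12 (TPM), and Dusp8 was -0.70 (library totals), -0.77 (TPM), -0.51 and -0.68 (FPKM). Dusp16 in Cadict against Ctrl was -0.19 (TPM). In Cu-Cys against Ctrl, where neither passed, Dusp10 was -0.052 (library totals), -0.0072 (at least 10 counts in every library), -0.15 (TPM), -0.077 and -0.081 (FPKM) and between -0.019 (without Cu-Cys replicate 1) and 0.059 (without Cu-Cys replicate 3). Dusp14 was -0.049, -0.0043, -0.11, -0.037 and -0.040 in the same order, -0.0035 without Ctrl replicate 3, and between -0.017 (without Cu-Cys replicate 1) and 0.062 (without Cu-Cys replicate 2). The cause was not tested. With DESeq2 size factors, 2 rather than 5 MAP kinase kinases were lower with Cadict, and with Cu-Cys 5 rather than 3 other dual-specificity phosphatases were higher.

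Same-numbered replicates correlated at -0.19 to 0.15 over 8551 genes, so no common pattern was seen. Because each group holds so few libraries, these values cannot decide whether same-numbered replicates were handled together. With the replicate block, 4 members stayed called higher and 1 lower for Cadict against Ctrl, 5 and 1 for Cadict against Cu-Cys, with 0 for Cu-Cys against Ctrl, and Dusp10 lost its call (adjusted p = 0.0747 against Ctrl and 0.0510 against Cu-Cys, edgeR). Over all genes 5685 rather than 5707, 183 rather than 196 and 5019 rather than 5041 were called.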
